A study of Mus musculus with 6 samples.

Results

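A set of 8 enzyme genes of non-essential amino acid synthesis were examined in embryonic mouse hearts with and without a deletion of the mitochondrial ribosomal protein gene Mrps5. They were Asns, which makes asparagine, Aldh18a1 and Pycr1, which make proline, the transaminase genes Gpt2, Got1 and Got2, and the transsulfuration genes Cth and Cbs. All 8 were found by official symbol among the 26199 genes of the deposited expression table, and 7 of them were among the 13262 genes that passed the filter on low values, Cbs being too low. Hearts were collected at embryonic day 12 from Mrps5 fl/fl control embryos and from Mrps5 fl/fl; cTNT-Cre littermates, with 3 libraries a group and 5 hearts pooled in each library. The day is that of the labels, and the main text of the study gives a slightly later stage for this sequencing. By the labels both groups carried 2 floxed Mrps5 alleles, and the main text of the study also gives 2 for the mutants. A supplementary legend of the study instead writes the mutant genotype with 1 floxed and 1 wild-type allele, a conflict that was not settled here. The cTNT-Cre transgene is driven by a cardiac troponin T promoter that is active in cardiomyocytes from early heart development. Blood, endothelial, epicardial and mesenchymal cells of the mutant hearts are expected to keep the gene, which was not measured by cell type. Whole hearts were sequenced. The question was how these enzyme genes differed between mutant and control hearts.

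Asparagine, proline, alanine, aspartate and cysteine can be made by the cell itself from glucose- or glutamine-derived carbon and from methionine. When amino acids run short, when the endoplasmic reticulum is stressed or when mitochondrial translation or respiration fails, the transcription factor ATF4 is translated and binds the amino acid response element near genes of this kind, of which Asns is the textbook example. Got1 and Got2, the cytosolic and the mitochondrial aspartate transaminase, also run the malate-aspartate shuttle, which carries reducing equivalents into the mitochondria of heart muscle.

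The deleted gene itself was examined before the enzymes. FPKM, the number of fragments scaled by transcript length and library size, of Mrps5 (ENSMUSG00000027374) was 9.65, 11.4 and 10.4 in control replicates 1 to 3, 5.28 and 7.41 in mutant replicates 1 and 2, and 10.4 in the library labelled mutant replicate 3. That library was at the control level for the gene its label says was deleted, so results are given with and without it. The log2 fold change of Mrps5 was -0.44 (standard error 0.19, adjusted p = 0.339, limma with Benjamini-Hochberg adjustment), and -0.66 (adjusted p = 0.0681) after removal of the library labelled mutant replicate 3. All 13 cardiomyocyte markers had a lower estimate in mutants, 7 of them at an unadjusted p under 0.05, beside 9.43% of all genes, and their summed FPKM was 12200 to 14600 in controls and 9840 to 11700 in mutants. In bulk hearts, fewer cells of a type and less RNA per cell cannot be told apart. Erythroid markers, of which 12 of 13 were in the table, took 12.0% to 13.3% of all FPKM in controls and 23.5%, 10.8% and 22.0% in mutant replicates 1 to 3. Markers of endothelial, epicardial, mesenchymal, hepatic and leukocyte cells were present in every group, no marker being listed at 0 in every library, with hepatic sums of 25.2 to 331 FPKM in controls and 98.7 to 197 in mutants. The part of these differences in the results below was not tested beyond the fits named beside them.

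Promoter sequence was available from RefSeq for 7 of the 8 genes, Cth being the exception, and was searched from 250 bases before the transcription start for the core of the amino acid response element (TGATGNAA, either strand) and for the E-box (CACGTG, the same on both strands). The response element core was present in 3 of the 7, against 3.45% of all 32851 promoters searched in the same window, and the E-box in 2 of the 7, against 6.02%. The stretches below, from GRCm38.p6 and written 5′ to 3′ on the gene's strand, are shown because they hold these motifs in front of 4 of the 5 genes that were higher in mutants and have an entry. Capitals mark the motif.
Asns, chr6:7693225-7693334 (minus strand): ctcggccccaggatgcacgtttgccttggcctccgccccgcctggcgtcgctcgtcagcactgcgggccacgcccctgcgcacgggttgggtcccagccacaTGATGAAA
Pycr1, chr11:120643774-120643873 (minus strand): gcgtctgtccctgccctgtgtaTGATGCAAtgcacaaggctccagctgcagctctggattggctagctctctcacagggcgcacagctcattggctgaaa
Got1, chr19:43524631-43524730 (minus strand): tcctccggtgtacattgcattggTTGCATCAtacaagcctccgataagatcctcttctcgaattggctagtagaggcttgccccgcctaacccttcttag
Aldh18a1, chr19:40588489-40588588 (minus strand): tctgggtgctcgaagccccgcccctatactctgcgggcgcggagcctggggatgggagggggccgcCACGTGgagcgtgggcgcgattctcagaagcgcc
The motif begins 23 bases before the RefSeq start in Asns, 103 in Pycr1 and 102 in Got1, where it lies on the opposite strand, and the E-box of Aldh18a1 begins 59 bases before the start. In the GENCODE M21 annotation of the same build, the last 30 bases of the Asns stretch lie in exon 1 of ENSMUST00000031766, whose start is 45 bases upstream of the RefSeq start, and the other 3 stretches overlap no annotated gene. Cbs also held an E-box, 229 bases before its start, and neither motif was found in this window of Gpt2 or Got2. These are matches of letters, and no binding was measured.

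FPKM is scaled by transcript length, so levels can be set side by side between genes. In control hearts the order of mean FPKM was Got2, Got1, Asns, Aldh18a1, Pycr1, Gpt2, Cth and Cbs, from 75.6 ± 6.8 (SD, n = 3) for Got2 to 0.191 ± 0.101 for Cbs. Asns overlapped its neighbour Aldh18a1 in this order, as Pycr1 overlapped Gpt2, and the other neighbours were separated in all 3 libraries. In mutants the mean of Asns, 78.6 ± 28.2 (SD, n = 3), stood beside that of Got2, 73.1 ± 6.9, with overlapping libraries.

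**Figure D1:**
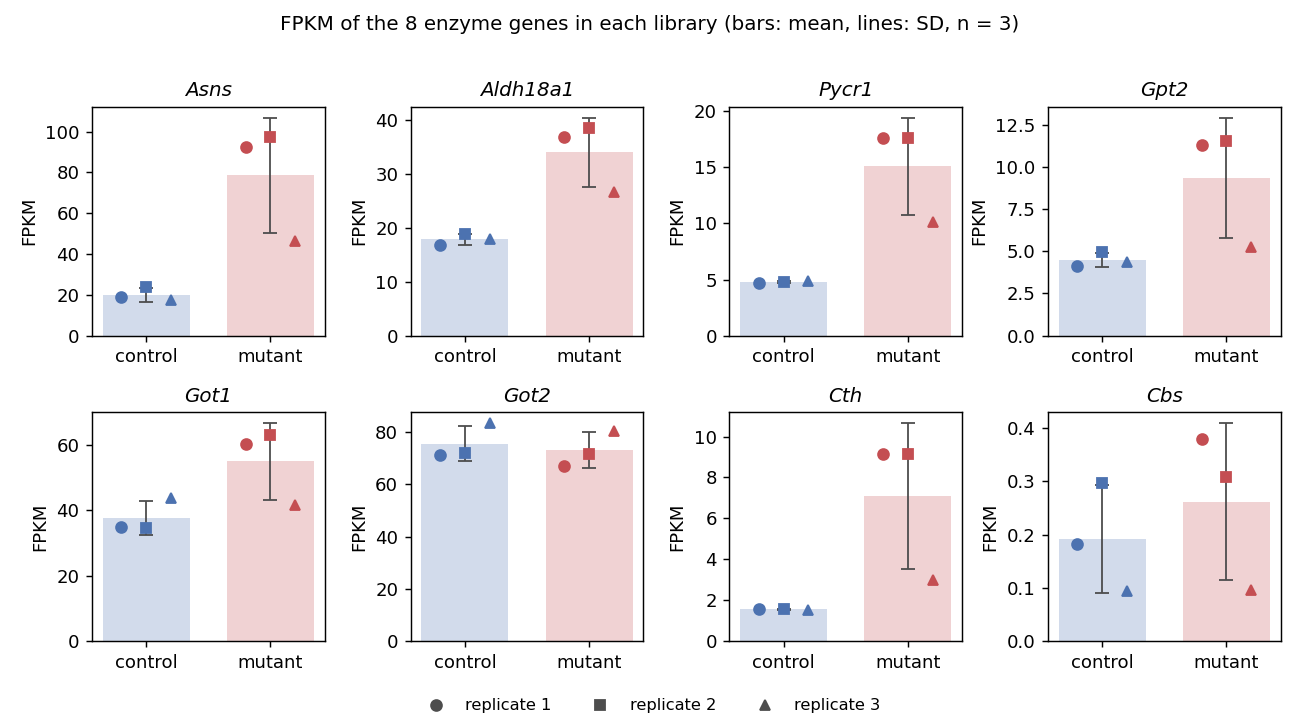
FPKM (y axis, linear, one scale per panel) of the 8 enzyme genes in control and mutant libraries, where points are single libraries, bars the mean and lines the SD (n = 3). In Asns, Aldh18a1, Pycr1, Gpt2 and Cth every mutant library lies above every control library, and the triangle of the library labelled mutant replicate 3 is the lowest mutant in 7 of the 8 panels, Got2 being the exception.

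In all, 6 of the 7 tested enzyme genes were higher in mutant hearts at an unadjusted p under 0.05 and none was lower at that level. Of all 13262 genes, 5.58% were higher and 9.43% lower at that threshold. In 5 of the 7 every mutant library was above every control library, as it was in 7.74% of all genes. The median log2 fold change was 0.88 over the 7, beside -0.02 over all genes. As the members were chosen with earlier results of these data known, these values describe them and are no test of the set. None of the 7 passed an adjusted p of 0.05, a threshold that 11 genes, or 0.0829%, passed, and adjusted values of the proline and asparagine genes ranged from 0.055 to 0.0645. Without the library labelled mutant replicate 3, 6 of the 7 passed the adjusted threshold as higher, as did 0.965% of the 13167 genes tested in the other 5 libraries. All 7 had an FPKM of at least 1 in each of the 6 libraries, so none passed the filter through the mutant libraries alone. Each log2 fold change is of FPKM with 1 added, which understates the change of low genes, and p-values measure the spread between these heart pools.

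Asns (ENSMUSG00000029752), the glutamine-dependent asparagine synthetase, had the largest log2 fold change of the members with 1 added to FPKM, while with 0.1 added that of Cth was larger, 1.945 against 1.907. Its FPKM was 19, 23.7 and 17.3 in control replicates 1 to 3 and 92.2, 97.4 and 46.2 in mutant replicates 1 to 3. Mutant libraries lay above all controls, and the library labelled mutant replicate 3 stood between the controls and the other mutants. The mean was 3.93-fold higher, 78.6 ± 28.2 against 19.98 ± 3.3 (SD, n = 3). The log2 fold change was 1.86 (standard error 0.26, 95% interval 1.26 to 2.47), the 12th largest positive value of all genes tested, with an unadjusted p of 9.04e-05 and an adjusted p of 0.0605 (limma). Without the library labelled mutant replicate 3 the log2 fold change was 2.2 (standard error 0.13, adjusted p = 0.000251, limma). Of the 5 transcript rows, ENSMUST00000031766 with 12 exons held 99.4% of the gene's FPKM in controls and 99.2% in mutants.

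Proline is made from glutamate by delta-1-pyrroline-5-carboxylate synthase, the product of Aldh18a1, and then by the reductases of the Pycr family. For Aldh18a1 (ENSMUSG00000025007) the FPKM was 16.9, 18.9 and 17.9 in control replicates 1 to 3 and 36.9, 38.5 and 26.7 in mutant replicates 1 to 3. Its groups were apart, with means of 17.9 ± 0.989 and 34.0 ± 6.43 (SD, n = 3), a ratio of 1.9. The log2 fold change was 0.88 (standard error 0.14, 95% interval 0.56 to 1.19, unadjusted p = 0.000188, adjusted p = 0.0645, limma), and 1.04 (standard error 0.094, adjusted p = 0.00136) after removal of the library labelled mutant replicate 3. A pair of transcript rows carried the gene in like proportion in both groups. ENSMUST00000176939 held 49.3% of the FPKM in controls and 52.5% in mutants and ENSMUST00000025979 held 44.0% and 41.5%, and their own log2 fold changes were 0.92 and 0.76. The pseudogene Gm15801 overlaps Aldh18a1 on the same strand, so reads of the overlap cannot be told apart.

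Pycr1 (ENSMUSG00000025140), the mitochondrial reductase that completes proline, had nearly equal controls. Its FPKM was 4.69, 4.79 and 4.84 in control replicates 1 to 3 and 17.6, 17.6 and 10.1 in mutant replicates 1 to 3. The mean was 3.16-fold higher, 15.1 ± 4.35 against 4.78 ± 0.075 (SD, n = 3). It had the smallest p of the enzyme genes, at a log2 fold change of 1.44 (standard error 0.19, 95% interval 1.0 to 1.87, unadjusted p = 5.8e-05, adjusted p = 0.055, limma). Its log2 fold change was 1.69 (standard error 0.094, adjusted p = 0.000203) after removal of the library labelled mutant replicate 3. The transcript row ENSMUST00000026133 held 80.5% of the FPKM in controls and 88.0% in mutants.

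Pycrl (ENSMUSG00000022571), the cytosolic reductase Pycr3 of the same family, was at 13.6 ± 0.556 FPKM in controls and 14.0 ± 0.157 in mutants (SD, n = 3), a log2 fold change of 0.04 with a 95% interval of -0.13 to 0.22 (unadjusted p = 0.585).

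Alanine and aspartate are made by moving the amino group of glutamate to pyruvate and to oxaloacetate. Gpt2 (ENSMUSG00000031700), the mitochondrial alanine transaminase, measured 4.1, 4.94 and 4.36 FPKM in control replicates 1 to 3 and 11.3, 11.5 and 5.22 in mutant replicates 1 to 3. The library labelled mutant replicate 3 was just above the highest control, and the other mutants were far above it. Means were 4.46 ± 0.431 and 9.34 ± 3.57 (SD, n = 3), a ratio of 2.09. The log2 fold change was 0.85 (standard error 0.25, 95% interval 0.28 to 1.43, unadjusted p = 0.00861, adjusted p = 0.195, limma), and 1.19 (standard error 0.11, adjusted p = 0.00151) without that library. The cytosolic isozyme gene Gpt (ENSMUSG00000022546) was at 1.54 ± 0.399 and 1.36 ± 0.269 FPKM (SD, n = 3), with a log2 fold change of -0.10 and a 95% interval of -0.47 to 0.27. A processed pseudogene, Gm5049, matches Gpt2 at 92.2% identity over 1328 bases and was not listed in the table, so reads from it could have been counted in Gpt2.

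Got1 (ENSMUSG00000025190), the cytosolic aspartate transaminase, measured 34.7, 34.4 and 43.6 FPKM in control replicates 1 to 3 and 60.1, 62.9 and 41.5 in mutant replicates 1 to 3. Mutant replicates 1 and 2 were above every control and the library labelled mutant replicate 3 was within the control range. Means were 37.6 ± 5.21 and 54.8 ± 11.6 (SD, n = 3). The log2 fold change was 0.52 (standard error 0.17, 95% interval 0.14 to 0.90, unadjusted p = 0.0134, adjusted p = 0.222, limma), and 0.70 (standard error 0.12, adjusted p = 0.0312) without that library. Got2 (ENSMUSG00000031672), its mitochondrial counterpart and the most abundant of the enzyme genes in controls, measured 71.4, 72 and 83.4 FPKM in control replicates 1 to 3 and 67, 71.7 and 80.6 in mutant replicates 1 to 3. Its groups overlapped, the log2 fold change being -0.05 (standard error 0.10, 95% interval -0.28 to 0.19, unadjusted p = 0.651, adjusted p = 0.862), and of -0.12 (95% interval -0.36 to 0.13) without the library labelled mutant replicate 3. In the annotation 4 near copies match Got2, such as Got2-ps1 with 99.1% identity over 1293 bases. None of them was listed in the table, and Gm45760 overlaps Got2 on the opposite strand, so the Got2 value is uncertain.

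Transsulfuration passes the sulfur of homocysteine to cysteine, through cystathionine beta-synthase, the product of Cbs, and then cystathionine gamma-lyase, the product of Cth. Cth (ENSMUSG00000028179) measured 1.57, 1.58 and 1.55 FPKM in control replicates 1 to 3 and 9.14, 9.15 and 2.99 in mutant replicates 1 to 3. Controls were nearly equal, as were mutant replicates 1 and 2, and the library labelled mutant replicate 3 lay between. The mean was 4.53-fold higher, 7.09 ± 3.55 against 1.57 ± 0.0174 (SD, n = 3), the highest ratio of means among the 8 genes. The log2 fold change was 1.53 (standard error 0.33, 95% interval 0.78 to 2.28, unadjusted p = 0.00142, adjusted p = 0.134, limma), and 1.98 (standard error 0.11, adjusted p = 0.000203) without that library. Gm43314 overlaps Cth on the same strand. Cbs (ENSMUSG00000024039) was at 0.183, 0.296 and 0.0945 FPKM in control replicates 1 to 3 and at 0.38, 0.308 and 0.0968 in mutant replicates 1 to 3. All values were under 0.5, so it did not pass the filter and was not tested in the main fit. Its groups overlapped, and of its 6 transcript rows 5 were listed at 0 in every library. With no filter on low values its log2 fold change was 0.079 (adjusted p = 0.795, limma).

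**Figure D2:**
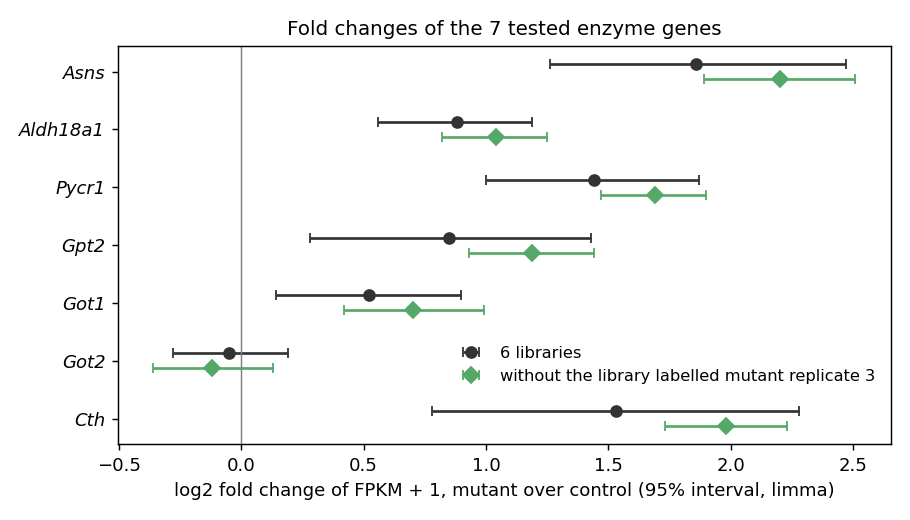
Log2 fold change of FPKM + 1 (x axis) of the 7 tested enzyme genes with its 95% interval from limma, for all 6 libraries (circles) and without the library labelled mutant replicate 3 (diamonds). Intervals of 6 genes lie above 0 in both fits and those of Got2 span 0.

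The size of the difference varied between mutant libraries in the same way for most of the enzyme genes. On the log2 scale mutant replicates 1 and 2 stood 2.16 and 2.24 above the control mean for Asns, 1.69 and 1.68 for Pycr1, 1.98 and 1.98 for Cth, 1.01 and 1.07 for Aldh18a1, 1.17 and 1.2 for Gpt2, and 0.67 and 0.74 for Got1. The library labelled mutant replicate 3 stood 1.18, 0.94, 0.64, 0.55, 0.19 and 0.15 above it for the same genes in that order. As a share of the mean of the other mutants, its difference was 53.6% for Asns, 55.5% for Pycr1 and 53.2% for Aldh18a1, 32.0% for Cth, and 21.1% for Got1 and 16.1% for Gpt2. In Got1, Got2 and Cbs, 3 of the 8 genes, that library was within the control range. The erythroid shares of mutant replicates 1 to 3 were 23.5%, 10.8% and 22.0%. With the mean erythroid marker level as a covariate, log2 fold changes were 2.11 for Asns, 1.01 for Aldh18a1, 1.61 for Pycr1, 1.09 for Gpt2, 0.70 for Got1 and 1.85 for Cth, at unadjusted p-values of 0.00022 to 0.00828 and adjusted p-values of 0.122 to 0.304 (limma).

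**Figure D3:**
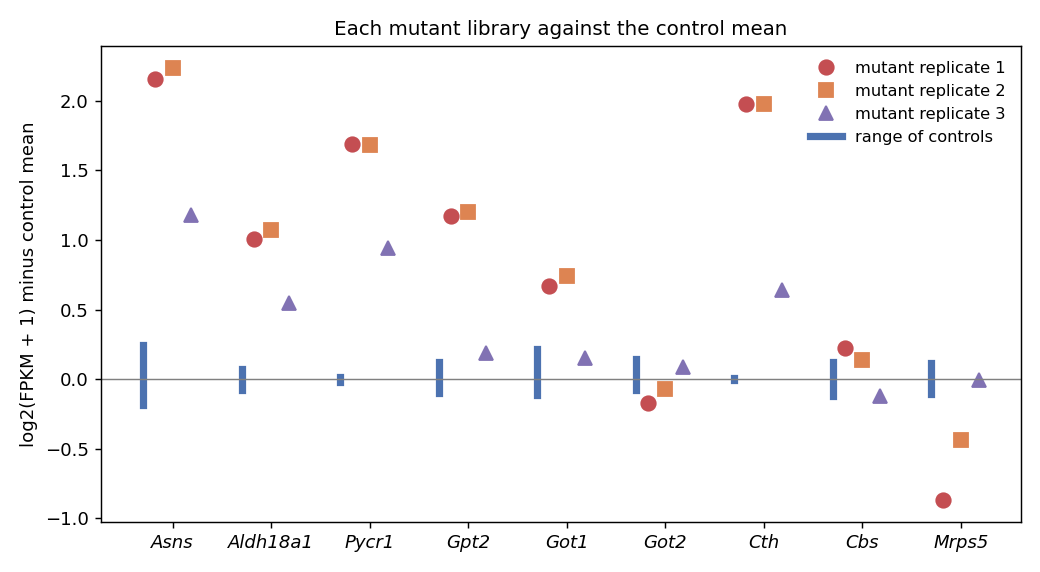
Log2(FPKM + 1) of each mutant library minus the control mean (y axis) for the 8 enzyme genes and Mrps5, where blue bars give the range of the 3 controls. The library labelled mutant replicate 3 (triangles) lies below the other mutant libraries in all of the enzyme genes but Got2 and at the control mean for Mrps5.

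Paired enzymes were also compared within each library, as differences of log2(FPKM + 1). With 1 added, scaling between libraries does not cancel fully for low genes such as Gpt and Cbs. The log2 level of Got1 minus that of Got2 was -1.02, -1.04 and -0.92 in control replicates 1 to 3 and -0.15, -0.19 and -0.94 in mutant replicates 1 to 3. The cytosolic transaminase thus came close to the mitochondrial in mutant replicates 1 and 2 and stood within the control range in the library labelled mutant replicate 3, giving means of -0.99 ± 0.0643 and -0.43 ± 0.445 (SD, n = 3) and an exact permutation p of 0.2, two-sided. Gpt2 minus Gpt was 0.92, 1.5 and 0.91 in controls and 2.22, 2.41 and 1.57 in mutants. Cth minus Cbs was 1.12, 0.99 and 1.22 in controls and 2.88, 2.96 and 1.86 in mutants. As Cbs was under 0.5 FPKM in every library, this last difference follows Cth alone, and no test of it is given. For Gpt2 minus Gpt all mutants were above all controls, with a difference of group means of 0.96, and the exact permutation p was 0.1, the smallest that 3 against 3 can give. After Benjamini-Hochberg adjustment over the 4 pairs compared, of which 3 are described, the exact p was 0.133 for the alanine transaminases and 0.2 for the aspartate transaminases.

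**Figure D4:**
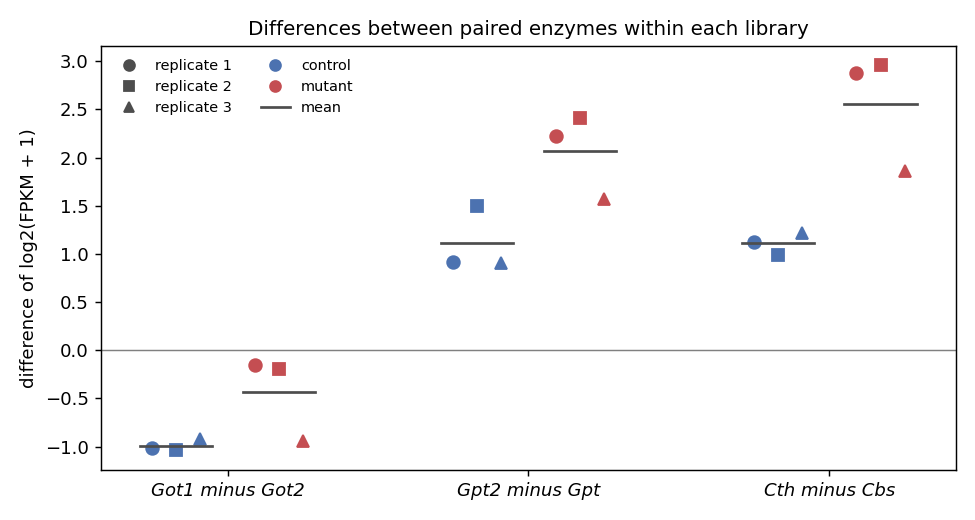
Difference of log2(FPKM + 1) between paired enzymes within each library (y axis), with controls in blue, mutants in red and group means as lines. In mutant replicates 1 and 2 all 3 differences are above every control, and in the library labelled mutant replicate 3 the Got1 minus Got2 difference, -0.94, is among the controls.

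Genes of the same pathways outside the 8 were compared in the same fit. Of 65 such genes that were listed, 49 were tested, and 9 were higher and 4 lower at an unadjusted p under 0.05, where 5.58% of all genes were higher and 9.43% lower. None had an adjusted p under 0.05, with a median log2 fold change of 0.08. One of the 9, Chac1, passed the filter through the mutant libraries alone. The lists, too, were chosen with earlier results of these data known, so their counts are no test of the pathways. Without the library labelled mutant replicate 3, 3 of 47 tested genes, P4ha1, Psat1 and Bcat1, passed the adjusted threshold as higher and none as lower. Of all genes tested in that fit, 0.965% passed it as higher.

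Among 6 tested genes of asparagine and aspartate metabolism other than the members, none had an unadjusted p under 0.05. The smallest p-values were those of Adss, which makes adenylosuccinate from aspartate (log2 fold change 0.10, unadjusted p = 0.345), Ass1, the argininosuccinate synthase (0.12, unadjusted p = 0.424), and Asnsd1, an asparagine synthetase domain gene (0.07, unadjusted p = 0.484). The FPKM of Asnsd1 was 35, 44 and 39.7 in controls and 41.4, 43.3 and 39.8 in mutants, so that the groups overlapped.

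Of 9 tested genes of proline and ornithine metabolism 3 were higher at an unadjusted p under 0.05 and none lower. Odc1 and P4ha2 were among them, and neither makes proline. Odc1, the ornithine decarboxylase of polyamine synthesis, was at 65.2, 76.6 and 66.9 FPKM in controls and 91.7, 94.8 and 89.2 in mutants, a log2 fold change of 0.40 (unadjusted p = 0.00188, adjusted p = 0.141, limma). P4ha2, a prolyl hydroxylase of collagen, was at 12.7, 11.1 and 12.5 in controls and at 23.1, 14.4 and 13.5 in mutant replicates 1 to 3, a log2 fold change of 0.42 (unadjusted p = 0.0475) that rested most on mutant replicate 1. Of the genes that degrade proline or feed it from ornithine, Aldh4a1 had a log2 fold change of 0.16 (unadjusted p = 0.141) and Oat of -0.17 (unadjusted p = 0.109).

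Of 11 tested genes of glutamate, glutamine and alanine metabolism 3 were higher at an unadjusted p under 0.05 and none lower. Psat1, the phosphoserine transaminase of serine synthesis, was at 21, 21 and 18.7 FPKM in controls and at 42.7, 44.8 and 26.8 in mutant replicates 1 to 3, a log2 fold change of 0.85 (unadjusted p = 0.00132), and of 1.08 (adjusted p = 0.00134, limma) after removal of the library labelled mutant replicate 3. Bcat1, the cytosolic branched-chain amino acid transaminase, was at 6.16, 7.74 and 8.32 in controls and at 19.4, 28.7 and 11.6 in mutants, a log2 fold change of 1.24 (unadjusted p = 0.00177), and of 1.56 (adjusted p = 0.00488, limma) without that library. Both are transaminases that use glutamate, and both had their lowest mutant value in the library labelled mutant replicate 3. Glul, the glutamine synthetase, was at 29.4, 37.7 and 35.9 in controls and 44.2, 39.5 and 44.2 in mutants, a log2 fold change of 0.31 (unadjusted p = 0.0206). Glud1, the glutamate dehydrogenase, had a log2 fold change of 0.09 (unadjusted p = 0.467).

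Of 18 tested genes of transsulfuration, the methionine cycle and glutathione metabolism 3 were higher and 1 was lower at an unadjusted p under 0.05. Chac1, an enzyme that degrades glutathione, was at 0.29, 0.0635 and 0.198 FPKM in controls and at 11, 8.62 and 2.43 in mutant replicates 1 to 3. It had the largest estimate of all listed genes, a log2 fold change of 2.64 (unadjusted p = 0.000164, adjusted p = 0.0645, limma), but with controls under the filter minimum it is no measure of how often genes of the list differ. Mpst, which handles sulfur from mercaptopyruvate, was at 8.14, 11.2 and 9.6 in controls and at 21, 11.3 and 17.4 in mutants, and Gclm, the modifier subunit of glutamate-cysteine ligase, at 16.1, 18.7 and 18.2 and at 26.7, 18.1 and 27.1. Their log2 fold changes were 0.69 (unadjusted p = 0.00959) and 0.40 (unadjusted p = 0.0285). Both were high in mutant replicates 1 and 3, the libraries with erythroid shares of 23.5% and 22.0%. With the erythroid level as a covariate their log2 fold changes were 0.33 (unadjusted p = 0.0792, limma) and 0.14 (unadjusted p = 0.27, limma). The covariate was itself higher in mutant replicates 1 and 3 than in any control, so this fit cannot part it from the deletion. The cause was not tested. Cdo1, the cysteine dioxygenase, was at 13.8, 15.5 and 16.1 in controls and 9.58, 13.4 and 11.3 in mutants, a log2 fold change of -0.39 (unadjusted p = 0.0146).

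Of the 5 tested partners of Got1 and Got2 in the malate-aspartate shuttle 3 were lower at an unadjusted p under 0.05 and none higher, beside 9.43% of all genes lower at that threshold, with a median log2 fold change of -0.21. Mdh1, the cytosolic malate dehydrogenase, was at 251, 249 and 287 FPKM in controls and at 183, 207 and 229 in mutants, a log2 fold change of -0.35 (unadjusted p = 0.0146, adjusted p = 0.226, limma). The carrier genes Slc25a11, for oxoglutarate and malate, and Slc25a13, for aspartate and glutamate, had log2 fold changes of -0.22 (unadjusted p = 0.0308) and -0.21 (unadjusted p = 0.0462), with all mutant libraries below all controls in each of these 3 genes, as in 13.0% of all genes. Mdh2, the mitochondrial malate dehydrogenase, had a log2 fold change of 0.01 (unadjusted p = 0.917). The summed cardiomyocyte markers were also lower in mutants, and their part in the shuttle genes was not tested.

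**Figure D5:**
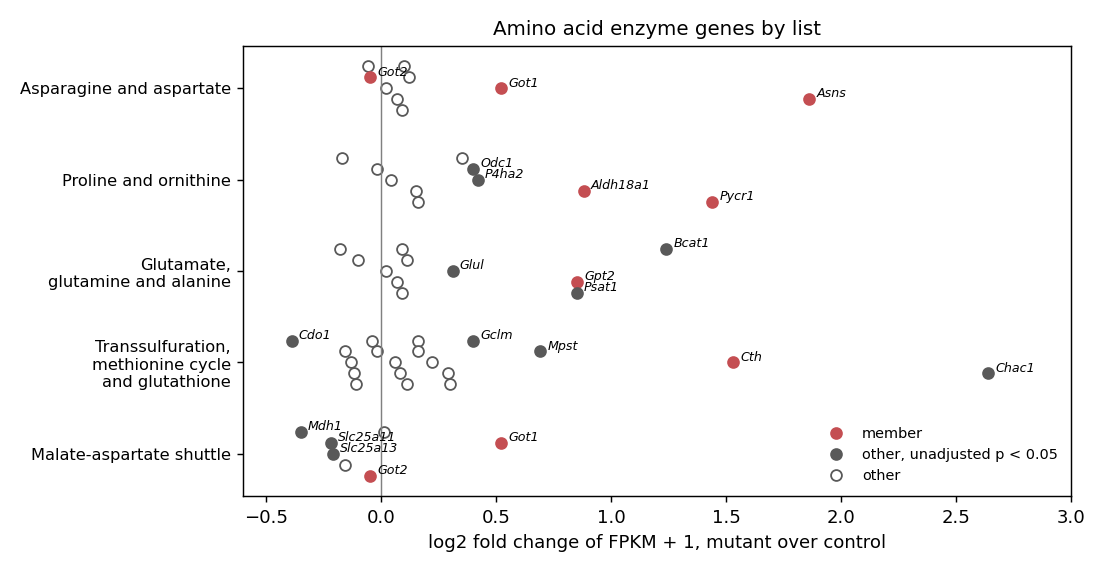
Log2 fold change of FPKM + 1 (x axis, mutant over control) of tested genes in 5 lists, less those not reported here (rows, points spread vertically for legibility), with the tested members in red and other genes with an unadjusted p under 0.05 filled and named. Outside the members most genes lie near 0, the median of 49 being 0.08, and the named shuttle genes other than Got1 and Got2 lie at -0.35 to -0.21.

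For each member with an unadjusted p under 0.05, the tested genes whose 6 log2 deviations from the control mean lay nearest were found by root mean square difference, over the same 6 libraries. For Asns they were Atf5 (0.0835), a transcription factor gene, Mthfd2 (0.147), of mitochondrial folate metabolism, and Cyb5r2 (0.177). FPKM of Atf5 was 5.85, 6.59 and 5.5 in controls and 32.8, 30.4 and 14.6 in mutants, a log2 fold change of 1.87 (adjusted p = 0.0605, limma). Those of Mthfd2 were 12.9, 15.8 and 13.4 and 58.6, 57.6 and 33.8, and it rose by 1.73 (adjusted p = 0.0309, limma). For Aldh18a1 the nearest were Gars (0.0494), the glycyl-tRNA synthetase gene, Dgat2 (0.0723) and Slc7a1 (0.078), a cationic amino acid transporter gene. For Pycr1 they were Adm2 (0.0607), 1810010H24Rik (0.0994) and Phgdh (0.132), which begins serine synthesis. Cyb5r2, Adm2 and 1810010H24Rik were under an FPKM of 1 in every control and passed the filter through the mutant libraries alone.

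The nearest genes to Cth were Fam129a (0.0693), Nppb (0.125), which encodes the natriuretic peptide BNP, and Aldh1l2 (0.135), of mitochondrial folate metabolism. FPKM of Nppb was 95.2, 111 and 91.5 in controls and 337, 384 and 146 in mutants. For Gpt2 they were Golm1 (0.104), Phf10 (0.109) and Cdkn1a (0.113), the p21 cell cycle inhibitor gene, whose FPKM was 6.32, 7.08 and 7.7 in controls and 19.5, 18.4 and 7.82 in mutants, so that the library labelled mutant replicate 3 was close to the controls as in Gpt2. For Got1 they were Renbp (0.0683), Acot2 (0.0884) and Avpi1 (0.091). The differences are a description, since nearby genes were sought among all those tested.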

How the data were processed

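Total RNA of whole embryonic hearts was depleted of ribosomal RNA and made into strand-specific libraries, per the labels. The authors deposited 1 table of FPKM with 60776 transcript rows and a column for each of the 6 libraries, and the submitters' processing notes name Bowtie2 2.2.8, HISAT2, StringTie 1.3.1, Cuffdiff 2.1.1 and mm9, with no role. The annotation release is not given in the sources used here, so no coordinates are given for the table's genes. FPKM holds no read numbers: depth is unknown, low values give only a rough relative depth of 1.149 and 1.395 for control replicates 2 and 3 and of 1.173, 1.376 and 1.613 for mutant replicates 1 to 3, against control replicate 1, and the FPKM of a library summed to 454692 to 515952. FPKM are relative to the library, so a rise in a few abundant transcripts lowers the rest.

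Transcript rows were summed by gene, 1 was added, and log2 values were compared with limma 3.58.1 in R 4.3.3 (moderated test with trend, two-sided, Benjamini-Hochberg adjustment over all genes tested), over genes that reached 1 FPKM in 3 or more libraries. The script was tested on simulated data. Pairs of enzymes were compared with exact permutation tests. Near copies were sought with blastn 2.17.0 (at least 90% identity over 200 bases) in GENCODE M21 transcripts, and promoters are from RefSeq. The genes named are the 8 members, Mrps5, isozymes of members, the 3 smallest p-values of each pathway list, and the 3 genes nearest to each member with an unadjusted p under 0.05. Aldh4a1, Oat, Glud1, Gclm, P4ha1 and Mdh2 were added after their values were seen. Some genes of the lists are not reported here, though they are in the counts. The members and lists were chosen with earlier results of these data known.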

Additional observations from a re-analysis of the deposited data

How the results depend on the processing

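Log2 fold changes were recomputed under 14 alternatives (13 for Cth, which a mean FPKM of at least 5 removed) and kept their sign in Asns (1.67 to 2.2), Aldh18a1 (0.78 to 1.04), Pycr1 (1.31 to 1.69), Gpt2 (0.68 to 1.19), Got1 (0.41 to 0.70) and Cth (1.31 to 1.98). Got2 (-0.12 to 0.02) changed sign to 0.024 without control replicate 3 and to 0.012 without mutant replicate 1. The highest adjusted p over the alternatives was 0.272 for Asns, 0.304 for Aldh18a1, 0.245 for Pycr1, 0.515 for Gpt2, 0.549 for Got1 and 0.429 for Cth. The number of members with an adjusted p under 0.05, 0 as reported, was 1 (Pycr1) with 0.1 added or for genes averaging 5 FPKM or more, and 0 to 6 when leaving out 1 library, with 2 (Asns and Pycr1) without mutant replicate 2 and 6 without the library labelled mutant replicate 3. Of all genes, 1991 had an unadjusted p under 0.05. That count was 1314 for genes averaging 5 FPKM or more, and 1177 to 2173 when leaving out 1 library, lowest without control replicate 1. The 11 genes with an adjusted p under 0.05 became 5 with no filter, 4 for the most abundant transcript alone, 6 with the erythroid covariate and 3 to 261 when leaving out 1 library, with 123 without mutant replicate 2. The labels give only 2 groups and the study tested them unpaired, so the main fit had no block. Same-numbered libraries deviated together by correlations of 0.215, 0.108 and 0.0892, and each library correlated best with its own number. With the replicate number as a block (replicate block), 4 genes had an adjusted p under 0.05, and the members had adjusted p-values of 0.0619 (Asns), 0.0981 (Aldh18a1), 0.0823 (Pycr1), 0.164 (Gpt2), 0.252 (Got1) and 0.124 (Cth). The cause of these shifts was not tested. Without read numbers, the counting error of low values such as those of Cbs and Cth is unknown.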
